A study of Homo sapiens with 8 samples.

Results

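The SLC25 genes encode the mitochondrial carrier family, and 48 protein-coding genes with a symbol of the form SLC25A and a number were found among the 78932 gene identifiers of the deposited tables. Their RNA was measured in HCT116, a human colorectal cancer line whose NUDT21 carries a degradation tag (dTAG). In 4 libraries the cells had received DMSO and JTE-607, and in 4 they had received dTAGV1 and JTE-607. dTAGV1 is a small molecule that sends dTAG-fused proteins to degradation, DMSO is its solvent, and JTE-607 inhibits CPSF73, the nuclease that cuts pre-mRNA at poly(A) sites. NUDT21 is the small subunit of cleavage factor Im, which binds RNA upstream of poly(A) sites. JTE-607 was thus present in every library, and doses, times and the number of cell clones are not given in the sources used here. The design asks how RNA levels change on adding dTAGV1 to cells whose cleavage nuclease is inhibited.

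Mitochondrial carriers are small proteins of the inner membrane that exchange metabolites between the matrix and the cytosol. Each is encoded in the nucleus, made in the cytosol and inserted through the TOM and TIM22 complexes. They move ADP and ATP, phosphate, citrate and malate, amino acids, acyl-carnitines, cofactors, iron and glutathione, so that respiration, lipid synthesis, haem synthesis and the redox balance of the matrix depend on them. A few members sit elsewhere, such as SLC25A46 in the outer membrane and SLC25A17 in peroxisomes, and several have no settled substrate.

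Libraries held 3447842 to 4291256 reads counted on the strand of genes. NUDT21 itself had 104, 139, 131 and 129 counts with DMSO (replicates 1 to 4) and 34, 29, 15 and 43 with dTAGV1 (same order), with a log2 fold change of -1.95 ± 0.18 (SE; edgeR adjusted p = 1.36e-09). The tag acts on the protein, which was not measured. Of 6 colorectal epithelial markers, EPCAM, CDH1, KRT8, KRT18 and CDX2 were well counted in all libraries and VIL1 had at most 3 counts. KRT18 was lower with dTAGV1 (log2 fold change -0.60) and EPCAM higher (0.28). Of uniquely mapped reads, 30.1% to 33.7% with DMSO and 35.9% to 37.4% with dTAGV1 were assigned to no gene on the sense strand. Such reads can be intronic, antisense to genes or outside annotated genes, as past an annotated 3′ end. The part of these differences in the results was not tested. Of 12 fibroblast, immune and endothelial markers, COL1A1 had 37 to 73 counts a library, VWF 1 to 10 and the others at most 4. The labels do not say that replicates came from separate cultures, so that p-values measure the spread between these libraries, which may be technical. In bulk RNA, fewer cells and less RNA per cell cannot be told apart.

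Cleavage factor Im recognises the RNA letters UGUA near poly(A) sites, so the annotated 3′ ends of the members were searched for TGTA in the last 100 bases of 1 GENCODE 29 transcript per gene. Of 33 members with enough counts for a test, 18 (54.5%) held it on the strand of the transcript, against 55.6% of 10637 tested protein-coding genes. Among the members that changed, as described further on, 6 of 13 held it, 5 of the 8 lower ones and 1 of the 5 higher ones. Of the other 20 tested members, 12 held it. Of the 6 that changed and held it, SLC25A39 held 2 TGTA and the others 1 each. The site nearest the annotated end of each gene is shown 5′ to 3′ on the strand of the transcript, with TGTA in capitals. All 6 lie in 3′ untranslated regions.
SLC25A5: gatgggactcaatTGTAttttttatttcag
SLC25A39: gccctcagcctggTGTAgtctccctgaccc
SLC25A40: tggaaaagtttatTGTAtcccttttgaatt
SLC25A29: agcctggtgtcgcTGTAcagaaactgtcaa
SLC25A13: gaaggtggaaataaactattTGTAaagtga
SLC25A20: agaaagcccagggTGTAggaaggccctttt
On GRCh38 the SLC25A5 site is chrX:119471240-119471269 on the plus strand. The others lie on minus strands: SLC25A39 at chr17:44319663-44319692, SLC25A40 at chr7:87833613-87833642, SLC25A29 at chr14:100291143-100291172, SLC25A13 at chr7:96120220-96120249 and SLC25A20 at chr3:48856993-48857022. The TGTA shown ended 6 bases before the annotated end in SLC25A13 and 45 to 70 bases before it in the other 5. SLC25A53, SLC25A43, SLC25A23, SLC25A1, SLC25A4, SLC25A15 and SLC25A37, the other members that changed, had no TGTA in this window. The search says nothing about binding, and the ends used in these cells may differ from the annotated ones. The poly(A) signal AATAAA or ATTAAA stood in the last 40 bases of 26 tested members (78.8%) and of 76.8% of the tested protein-coding genes.

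Of the 48 members, 33 had enough counts for the test and 13 of these were called, which means a Benjamini-Hochberg adjusted p under 0.05 in edgeR. That is 39.4% of the tested members, where 57.9% of all 12618 tested genes differed. SLC25A53, SLC25A23, SLC25A20, SLC25A4 and SLC25A37 were higher with dTAGV1, 5 members against 29.4% of all genes. SLC25A43, SLC25A40, SLC25A1, SLC25A39, SLC25A5, SLC25A29, SLC25A15 and SLC25A13 were lower, 8 members against 28.5% of all genes. The groups did not overlap in CPM, counts in each 1000000 after scaling between libraries (TMM), for 14 tested members (42.4%), all 13 called ones and SLC25A10, against 50.9% of all genes. The change exceeded 2-fold for SLC25A53, SLC25A43 and SLC25A40, where 16.6% of all genes were called and changed that much. The median log2 fold change of the tested members was -0.13, beside 0.01 for all tested genes, and the median absolute value was 0.31 beside 0.42. Median expression was 24.0 CPM for tested members and 27.0 CPM for all tested genes. Of the tested members, 9 overlap another annotated gene on their strand, and their levels are uncertain there. They are SLC25A43, SLC25A29, SLC25A13, SLC25A10, SLC25A51, SLC25A36, SLC25A33, SLC25A3 and SLC25A17.

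**Figure D1:**
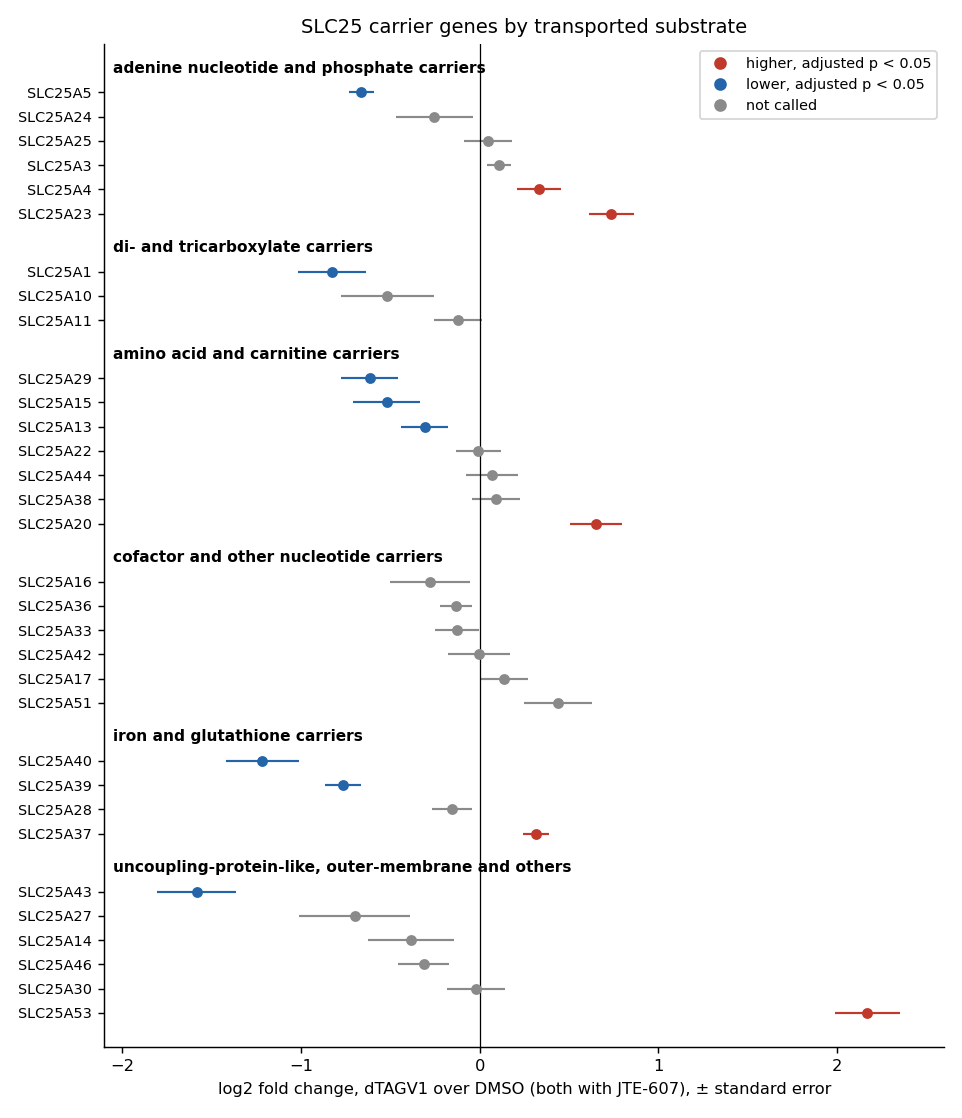
Log2 fold change of each tested SLC25 gene described in the text, dTAGV1 over DMSO, with its standard error as a horizontal bar, ordered by role. SLC25A53 stands at 2.17 and SLC25A43 at -1.58, the outermost values, and the cofactor carriers hold no called gene.

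Adenine nucleotide and phosphate carriers supply the ATP synthase and export its product. Of 9 members of this group, 6 were tested, of which SLC25A5 fell and SLC25A4 and SLC25A23 rose. Over all tested genes 57.9% were called. SLC25A5 (ADP/ATP translocase ANT2; ENSG00000005022; chromosome X, 119468400 to 119471319, plus strand) had 406, 442, 434 and 438 CPM with DMSO (replicates 1 to 4) and 259, 277, 260 and 289 with dTAGV1 (same order). Every dTAGV1 library was below every DMSO library. The mean fell from 430 ± 16.6 to 272 ± 14.3 CPM (mean ± SD, n = 4 each), with a log2 fold change of -0.66 ± 0.07 (SE; edgeR adjusted p = 9.4e-09). SLC25A4 (ANT1, the isoform of heart and muscle; chromosome 4, 185143241 to 185150382, plus strand) had 27.9, 29.4, 24.5 and 24.2 CPM with DMSO and 35.7, 30.2, 36.5 and 31.2 with dTAGV1. Its groups also did not overlap, but lay close, and its log2 fold change came to 0.33 ± 0.12 (SE; edgeR adjusted p = 0.0255). The call for SLC25A4 was lost without DMSO replicate 3 or 4 (edgeR adjusted p = 0.0776 and 0.0860) or dTAGV1 replicate 1 or 3 (0.0659 and 0.0957), with DESeq2 (0.0573), without a filter (0.0762) and with library-size scaling (0.0853).

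The third ADP/ATP translocase with wide expression, SLC25A6 (ANT3), had 0 counts in all 8 libraries. It lies in the pseudoautosomal region shared by the X and Y chromosomes, and the tables list it under 2 identifiers, both at 0. All 15 protein-coding genes of that region up to CD99 have 2 identifiers each, and 14 of them had 0 counts in every library, so that the value of SLC25A6 says nothing of its expression. SLC25A31, the germ-cell translocase, had at most 3 counts a library. None of 44 SLC25 pseudogenes exceeded 4 counts over the 8 libraries, and 42 had none. SLC25A5 and SLC25A6 have near-identical copies that can share their reads, so that their levels are uncertain.

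SLC25A3 carries phosphate into the matrix. It had 342, 352, 341 and 335 CPM with DMSO (replicates 1 to 4) and 342, 368, 358 and 407 with dTAGV1 (same order). The groups overlapped, and its log2 fold change came to 0.11 ± 0.07 (SE; edgeR adjusted p = 0.189). The calcium-regulated ATP-Mg/phosphate carriers adjust the nucleotide pool of the matrix. Of these, SLC25A23 (chromosome 19, 6436079 to 6465203, minus strand) had 27.1, 23.6, 21.6 and 22.5 CPM with DMSO and 39.1, 33.2, 43.3 and 41.9 with dTAGV1. All 4 dTAGV1 libraries lay above the DMSO libraries, with a log2 fold change of 0.74 ± 0.13 (SE; edgeR adjusted p = 1.96e-05). SLC25A24 and SLC25A25 had log2 fold changes of -0.25 and 0.05 and were not called (edgeR adjusted p = 0.322 and 0.781). SLC25A41, another carrier of this kind, had 6 to 12 counts a library and was not tested.

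Carriers of di- and tricarboxylates link the citric acid cycle to the cytosol. SLC25A1, which exports citrate for lipid synthesis (ENSG00000100075; chromosome 22, 19175575 to 19178830, minus strand), had 128, 103, 101 and 144 counts with DMSO (replicates 1 to 4) and 77, 75, 37 and 59 with dTAGV1 (same order). The dTAGV1 libraries were all below the DMSO libraries, with replicates 3 and 4 the lowest. SLC25A1 fell from 30.6 ± 5.5 to 17.3 ± 5.81 CPM (mean ± SD, n = 4 each), with a log2 fold change of -0.83 ± 0.19 (SE; edgeR adjusted p = 0.000927). SLC25A10, the dicarboxylate carrier, had a log2 fold change of -0.52 (edgeR adjusted p = 0.0908) at means of 5.99 CPM with DMSO and 4.20 CPM with dTAGV1. SLC25A11, the oxoglutarate/malate carrier of the malate-aspartate shuttle, had -0.12 (edgeR adjusted p = 0.441). SLC25A21, an oxoadipate carrier, had 2 to 16 counts a library and was not tested.

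Of 10 amino acid and carnitine carriers, 7 were tested, of which 3 fell and 1 rose, where 57.9% of all tested genes were called. SLC25A29, a carrier of basic amino acids (chromosome 14, 100291111 to 100306547, minus strand), had 20.8, 21.0, 22.1 and 24.7 CPM with DMSO and 14.2, 18.1, 10.9 and 14.7 with dTAGV1. Each dTAGV1 value was below each DMSO value, with a log2 fold change of -0.62 ± 0.16 (SE; edgeR adjusted p = 0.00183). SLC25A29 overlaps the gene ENSG00000259052 on its strand, so that its level is uncertain there. With counts irrespective of strand it had 6, 2, 8 and 1 with DMSO and 3, 2, 3 and 1 with dTAGV1, too few for the test, so that this call rests on the stranded counts.

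SLC25A15, the ornithine carrier of the urea cycle (chromosome 13, 40789412 to 40810111, plus strand), had 43, 45, 51 and 48 counts with DMSO and 27, 27, 28 and 39 with dTAGV1. Its log2 fold change came to -0.52 ± 0.19 (SE; edgeR adjusted p = 0.0198). This call was lost without DMSO replicate 3 (log2 fold change -0.46, edgeR adjusted p = 0.0597). With counts irrespective of strand the value was 0.41 (edgeR adjusted p = 0.248) on 10 to 31 counts a library, and the cause was not tested. The direction for SLC25A15 thus rests on the stranded counts. Reads on the opposite strand of SLC25A15 averaged 0.788 ± 0.604 CPM with DMSO and 2.34 ± 0.850 CPM with dTAGV1 (SD, n = 4 each), without overlap in CPM. They numbered 1 to 6 counts a library with DMSO and 6 to 15 with dTAGV1. SLC25A13, the aspartate/glutamate carrier citrin (chromosome 7, 96120220 to 96322147, minus strand), had 27.1, 24.1, 27.5 and 29.2 CPM with DMSO and 23.0, 19.3, 22.1 and 22.5 with dTAGV1. The groups did not overlap, and the log2 fold change came to -0.31 ± 0.13 (SE; edgeR adjusted p = 0.0467). That call was lost in 7 of 14 alternatives, namely without DMSO replicate 1, 3 or 4 (edgeR adjusted p = 0.0634, 0.0825 and 0.119), without dTAGV1 replicate 2 or 3 (0.0977 and 0.0625), without a filter (0.0801) and with DESeq2 (0.0815). SLC25A12, the other aspartate/glutamate carrier, had at most 5 counts a library.

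SLC25A20 brings acyl-carnitines into the matrix for fatty acid oxidation (ENSG00000178537; chromosome 3, 48856931 to 48898993, minus strand). It had 16.4, 13.7, 17.3 and 18.1 CPM with DMSO (replicates 1 to 4) and 24.9, 22.1, 28.3 and 27.2 with dTAGV1 (same order). All dTAGV1 libraries lay above the DMSO libraries, with a log2 fold change of 0.65 ± 0.15 (SE; edgeR adjusted p = 0.000456). SLC25A22, a glutamate carrier, SLC25A38, which brings glycine in for haem synthesis, and SLC25A44, a carrier of branched-chain amino acids, had log2 fold changes of -0.01, 0.09 and 0.07. None of these 3 was called (edgeR adjusted p = 0.963, 0.588 and 0.704). SLC25A2 and SLC25A18, the second ornithine and the second glutamate carrier, had at most 1 count a library.

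Among iron and glutathione carriers all 4 members were tested, of which 2 fell and 1 rose, where 57.9% of all tested genes were called. SLC25A39 and SLC25A40 import glutathione, the thiol that buffers the redox state of the matrix. SLC25A39 (ENSG00000013306; chromosome 17, 44319625 to 44324870, minus strand) had 110, 87.3, 106 and 87.3 CPM with DMSO (replicates 1 to 4) and 52.7, 65.6, 58.6 and 52.5 with dTAGV1 (same order). Every dTAGV1 library was below every DMSO library, with a log2 fold change of -0.77 ± 0.10 (SE; edgeR adjusted p = 5.35e-07).

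SLC25A40 (ENSG00000075303; chromosome 7, 87833568 to 87876357, minus strand) had 71, 75, 75 and 58 counts with DMSO and 18, 28, 21 and 45 with dTAGV1. The groups did not overlap, and dTAGV1 replicate 4 was the nearest to the DMSO libraries. SLC25A40 fell from 17.96 ± 2.54 to 7.60 ± 2.47 CPM (mean ± SD, n = 4 each), with a log2 fold change of -1.22 ± 0.21 (SE; edgeR adjusted p = 1.67e-05). It overlaps DBF4 on the opposite strand, whose log2 fold change was -0.93. The iron carriers mitoferrin-1 (SLC25A37) and mitoferrin-2 (SLC25A28) feed haem and iron-sulphur synthesis. SLC25A37 (chromosome 8, 23528805 to 23575463, plus strand) had 177, 166, 177 and 174 CPM with DMSO and 223, 231, 198 and 211 with dTAGV1. All dTAGV1 libraries were above the DMSO libraries, and its log2 fold change came to 0.31 ± 0.07 (SE; edgeR adjusted p = 0.000606). SLC25A28 had -0.16 and was not called (edgeR adjusted p = 0.239).

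None of the 7 tested carriers of cofactors and of other nucleotides was called, where 57.9% of all tested genes were. By an unadjusted edgeR test 1 of them was below 0.05. Their log2 fold changes ran from -0.28 for SLC25A16, linked to coenzyme A, to 0.44 for SLC25A51, the NAD carrier. SLC25A51 had 36, 39, 51 and 31 counts with DMSO and 44, 45, 46 and 63 with dTAGV1, which overlapped (edgeR adjusted p = 0.0527). Without DMSO replicate 3 it was called, at 0.60 (edgeR adjusted p = 0.0138), with counts irrespective of strand at 0.70 (0.00643), and with the replicate number as a block at 0.45 (0.04999, just under the threshold). Those of SLC25A42, the coenzyme A carrier, and of the pyrimidine nucleotide carriers SLC25A33 and SLC25A36 were 0.00, -0.13 and -0.13. SLC25A17 had 0.14. The S-adenosylmethionine carrier SLC25A26 and the folate carrier SLC25A32 had at most 5 and 7 counts a library, and SLC25A52 had 0. SLC25A32 overlaps ENSG00000285982 on its strand and its level is uncertain there.

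The remaining 11 members comprise uncoupling-protein-like and little-characterised carriers, and this group held the outermost change in each direction among the tested members. SLC25A53, a carrier with no settled substrate (ENSG00000269743; chromosome X, 104099214 to 104157027, minus strand), had 24, 35, 21 and 17 counts with DMSO (replicates 1 to 4) and 95, 87, 101 and 123 with dTAGV1 (same order). Even the lowest dTAGV1 library had over 2 times the counts of the highest DMSO library. SLC25A53 rose from 6.20 ± 1.78 to 28.0 ± 1.67 CPM (SD, n = 4 each), 4.49-fold or 2.17 ± 0.18 on the log2 scale (SE; edgeR adjusted p = 2.53e-10). Over the 14 alternatives it ran from 2.01 to 2.36. ZCCHC18, which overlaps SLC25A53 on the opposite strand, had 0 counts in every library. The annotated 3′ untranslated region of SLC25A53 is 5123 bases long, beside a median of 1207 for tested members. That of SLC25A16 is longer, at 5434 bases, and SLC25A16 had a log2 fold change of -0.28 and was not called. A link between this length and the change of SLC25A53 was not tested.

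SLC25A43, also without a settled substrate (ENSG00000077713; chromosome X, 119399060 to 119454478, plus strand), had 52, 48, 48 and 46 counts with DMSO (replicates 1 to 4) and 12, 13, 13 and 22 with dTAGV1 (same order). The groups did not overlap. It fell from 12.5 ± 1.31 to 4.09 ± 0.776 CPM (mean ± SD, n = 4 each), with a log2 fold change of -1.58 ± 0.22 (SE; edgeR adjusted p = 1.28e-06). SLC25A43 ends 13922 bases before the start of SLC25A5 on the same strand, so that 2 called members that fell are neighbours. PGRMC1, the nearest tested gene before SLC25A43, had a log2 fold change of -0.18 and was not called (edgeR adjusted p = 0.194). SLC25A43 overlaps ENSG00000237903 on its strand and its level is uncertain there.

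SLC25A27 (UCP4) and SLC25A46, which acts in mitochondrial fission, had log2 fold changes of -0.70 and -0.31 and just missed the threshold (edgeR adjusted p = 0.0547 and 0.0619). SLC25A27 was called without DMSO replicate 3 (-0.86, edgeR adjusted p = 0.0261) or dTAGV1 replicate 1 or 2 (-0.81 and -0.89, edgeR adjusted p = 0.0466 and 0.0286). It was also called with the replicate number as a block (-0.70, edgeR adjusted p = 0.0412), with library-size scaling (-0.78, 0.0346) and with counts irrespective of strand (-0.73, 0.0474). SLC25A46 was called without DMSO replicate 1 (-0.40, edgeR adjusted p = 0.0224) or dTAGV1 replicate 4 (-0.38, 0.0407), with library-size scaling (-0.39, 0.0230) and with counts irrespective of strand (-0.34, 0.0424). SLC25A14 (UCP5) had -0.38 and SLC25A30 had -0.02, neither of which was called (edgeR adjusted p = 0.177 and 0.923). SLC25A34, SLC25A35, SLC25A45, SLC25A47 and SLC25A48 had 0 to 18 counts a library and were not tested. SLC25A47, a liver carrier, had 0 in every library, and a count of 0 allows up to 0.704 to 0.9 CPM a library, for counting error alone.

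**Figure D2:**
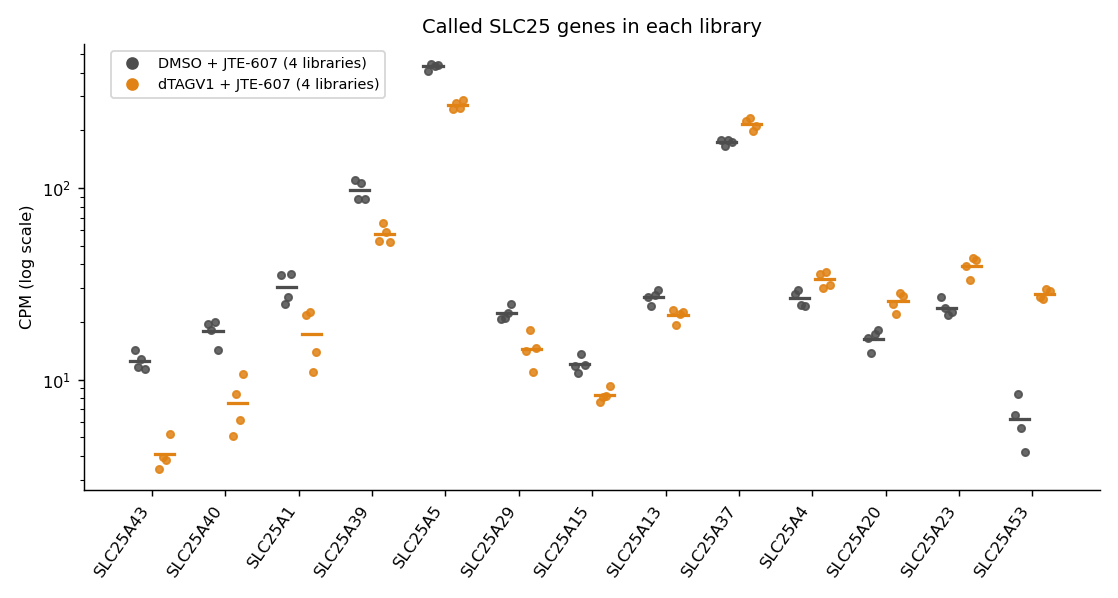
CPM of the 13 called SLC25 genes in each library on a log axis, with DMSO in grey, dTAGV1 in orange and a bar at each mean. No gene has overlapping groups, and the separation is widest for SLC25A53 (6.20 against 28.0 CPM) and SLC25A43 (12.5 against 4.09 CPM).

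The 48 members together took 0.175% ± 0.00123 of the unscaled sense counts with DMSO and 0.151% ± 0.00604 with dTAGV1. These values are mean ± SD over 4 libraries each. The DMSO libraries ran from 0.173% to 0.176% and the dTAGV1 libraries from 0.146% to 0.159%. SLC25A3 and SLC25A5 made up 43.8% to 46.1% of the members' counts with DMSO and 39.6% to 43.1% with dTAGV1. SLC25A5 alone fell from 430 to 272 CPM. The shares carry no TMM scaling, whose factors were 1.01 to 1.04 with DMSO and 0.962 to 0.993 with dTAGV1. The parts of SLC25A5 and of scaling in the lower share were not tested, so the share does not show a fall across the family.

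**Figure D3:**
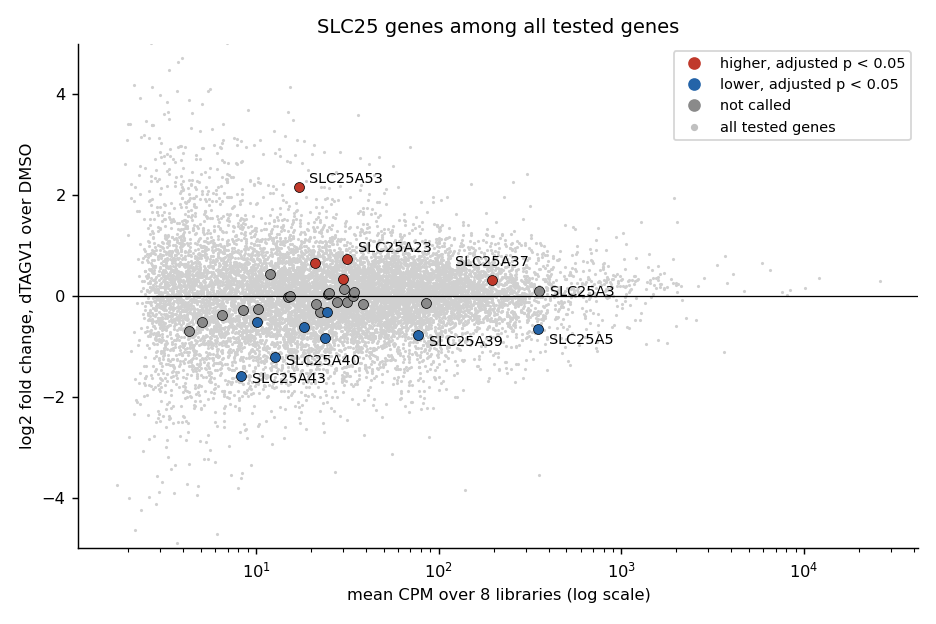
Log2 fold change against mean CPM over 8 libraries (log axis) for all tested genes in light grey and for SLC25 genes as larger points. SLC25A53 lies at 2.17 among genes of similar level, and the abundant SLC25A5 and SLC25A3 lie at -0.66 and 0.11; 13 genes beyond 5 in either direction are not drawn.

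Within the family, log2 fold changes were set against properties of the annotated genes, as a description over genes that share the same libraries. Spearman's rho across the 33 tested members was 0.16 with gene length, 0.26 with the length of the 3′ untranslated region, -0.29 with the number of exons, -0.12 with the number of TGTA in the last 100 bases and 0.34 with mean CPM. Across 10637 tested protein-coding genes the same values were 0.15, 0.04, 0.05, 0.02 and 0.12. The annotated 3′ untranslated region had a median of 3414 bases in the 5 higher members, 766 in the 8 lower ones and 1325 in the 20 that were not called. These numbers are small, and the difference between them was not tested.

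Related carriers were then compared with each other by the ratio of their counts within a library, in which scaling cancels. Of 15 pairs listed, both members were tested in 11. In 4 pairs the ratios of the groups did not overlap, each with the smallest p that 4 libraries against 4 can give (exact permutation test, 2-sided, p = 0.0286). With adjustment over the 11 pairs, none of them passed (Benjamini-Hochberg adjusted p = 0.0786 for these 4). At this smallest p a pair can pass the adjustment only if most of the 11 pairs reach it too. The adjusted test thus cannot decide for a single pair. Among ADP/ATP translocases, the log2 ratio of SLC25A4 to SLC25A5 moved from -4.02 ± 0.16 to -3.02 ± 0.21 (SD, n = 4 each), a 1.99-fold higher ratio. SLC25A23 gained on both SLC25A24, by 1.02, and SLC25A25, by 0.69 on the log2 scale. The ratio of SLC25A28 to SLC25A37 fell by 0.46. For the glutathione carriers, SLC25A39 against SLC25A40, the ratio moved by 0.51 with overlapping groups (exact permutation p = 0.114, adjusted 0.210). The pyrimidine carriers SLC25A33 and SLC25A36 had a log2 ratio of -1.62 in both groups (exact permutation p = 1).

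**Figure D4:**
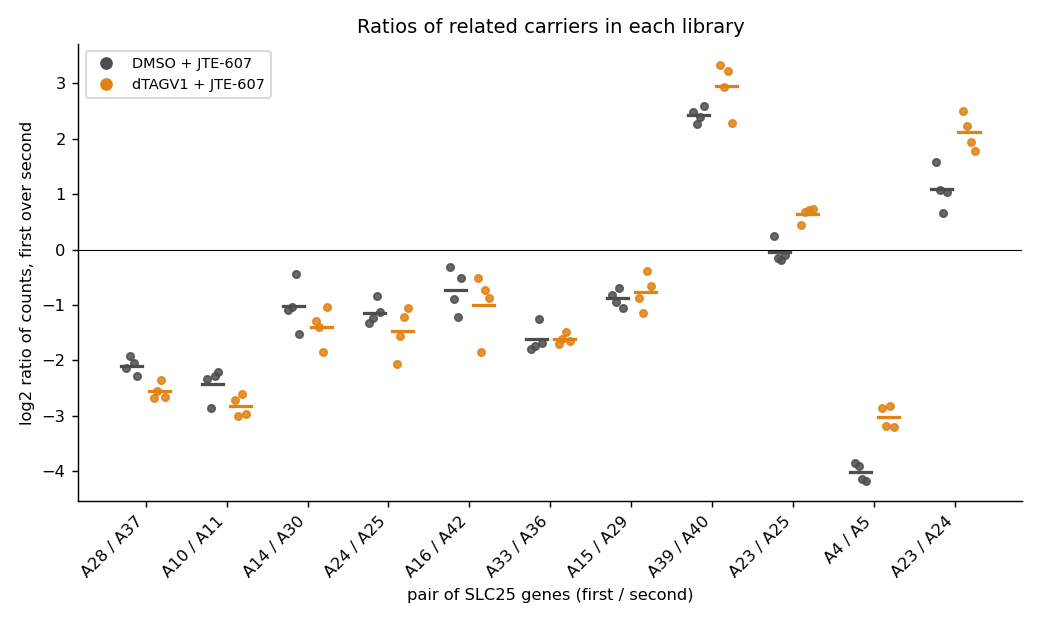
Log2 ratio of the counts of the first to the second SLC25 gene of each pair in every library, with DMSO in grey, dTAGV1 in orange and a bar at each mean. The groups separate for A28 / A37, A23 / A25, A4 / A5 and A23 / A24, and lie on each other for A33 / A36.

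Genes that work with the carriers were taken from 9 lists written from general knowledge. Named genes of these lists were called unless stated otherwise. Of 103 tested genes, 64 were called, 19 higher and 45 lower with dTAGV1. That is 62.1%, near the 57.9% of all tested genes, of which 29.4% were higher and 28.5% lower. The lists hold 5 to 18 tested genes each. Their share called ran from 38.9% for the ATP synthase to 100% for the folate and the carnitine lists. The carrier import list held 6 called of 13 tested, 2 higher and 4 lower. TIMM10B, a small chaperone of the intermembrane space, had its largest decrease at -0.98, and TIMM29, a subunit of the TIM22 complex, its largest increase at 0.38. TOMM70, the receptor for carrier precursors, had 0.18 and was not called (edgeR adjusted p = 0.0960). Of 18 ATP synthase genes, 2 rose and 5 fell. The 3 genes for the c subunit of its membrane ring did not move together: ATP5MC2 rose by 0.71 and ATP5MC3 fell by 0.75 on the log2 scale, while ATP5MC1 had -0.32 and was also called.

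Other metabolite transporters of mitochondria held 8 called of 14 tested, with 7 lower. That is 57.1%, beside 57.9% of all tested genes. SFXN2 and SFXN4, members of the sideroflexin family, had log2 fold changes of -1.50 and -1.27. SFXN2 was scarce, at means of 5.36 CPM with DMSO and 1.91 CPM with dTAGV1. Of the same family, SFXN1 had -0.19. SFXN3 and SFXN5 had -0.24 and 0.22 and were not called (edgeR adjusted p = 0.145 and 0.150). MPC1 and MPC2 together form the pyruvate carrier. MPC1 fell from 30.2 to 17.0 CPM and MPC2 rose from 58.0 to 73.2 CPM, log2 fold changes of -0.82 and 0.34. MTCH1 and MTCH2, carrier-like proteins of the outer membrane, were both lower, at -0.43 and -0.45. Their symbols lie outside the form that defines the members, so they are in none of the member counts.

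Enzymes around citrate export and the malate-aspartate and glycerophosphate shuttles held 8 called of 12 (66.7%), 2 higher and 6 lower. The share over all tested genes was 57.9%. FASN, the fatty acid synthase that uses carbon exported by SLC25A1, fell from 364 ± 103 to 134 ± 13.9 CPM (mean ± SD, n = 4 each). Its log2 fold change came to -1.44. ACLY and ACACA, which turn cytosolic citrate into acetyl-CoA and malonyl-CoA, had -0.40 and -1.03. GOT1 and GOT2, the aminotransferases of the malate-aspartate shuttle, had -0.41 and -0.39, and MDH1 and MDH2 had 0.00 and 0.02 and were not called (edgeR adjusted p = 0.992 and 0.820).

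All 7 tested genes of the carnitine shuttle and fatty acid oxidation were called, 5 lower and 2 higher, where 57.9% of all tested genes were called. CPT1A and CPT2, which act before and after SLC25A20, had log2 fold changes of -0.97 and -0.45, where SLC25A20 itself had 0.65. CRAT had the largest decrease, at -1.42, and ACADM and ACADVL, the first enzymes of the spiral, had -1.41 and -0.86. HADHB, with 0.67, and HADHA, with 0.39, encode the 2 subunits of the trifunctional protein and rose. The median of the list was -0.86.

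The haem and iron-sulphur list held 12 called of 17 (70.6%), 5 higher and 7 lower, where 57.9% of all tested genes were called. CPOX, which makes protoporphyrinogen in the intermembrane space, fell from 142 ± 6.97 to 30.4 ± 1.93 CPM, and ISCU, the scaffold of iron-sulphur assembly, rose from 120 ± 3.99 to 274 ± 11.5 CPM (SD, n = 4 each). Their log2 fold changes were -2.22 and 1.19. CPOX overlaps ENSG00000285635 on its strand. Of the other partner genes named, TIMM10B, ATP5MC2, ATP5MC3, SFXN5, ACACA, ACADM, MTHFD1L, PPARGC1B and GABPB1 also overlap annotated genes on their strands. The levels of all these genes are uncertain there. ALAS1, the first enzyme of haem synthesis, had 0.39 and FECH, the last, had -0.31.

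All 5 tested folate enzymes were called, 2 higher and 3 lower, where 57.9% of all tested genes were called. MTHFD2, SHMT2 and MTHFD1 had log2 fold changes of -0.89, -0.87 and -0.42. MTHFD1L had 0.52, the largest increase, and MTHFD2L had 0.38. Among 8 matrix amino acid enzymes, 1 rose and 4 fell (62.5% called). ALDH18A1, which starts proline and ornithine synthesis from glutamate, had 0.89, and OAT, which interconverts ornithine and glutamate semialdehyde, had -1.03. Of 9 tested regulators of mitochondrial biogenesis, 2 rose and 4 fell (66.7% called), from PPARGC1B at -1.22 to GABPB1 at 0.38.

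**Figure D5:**
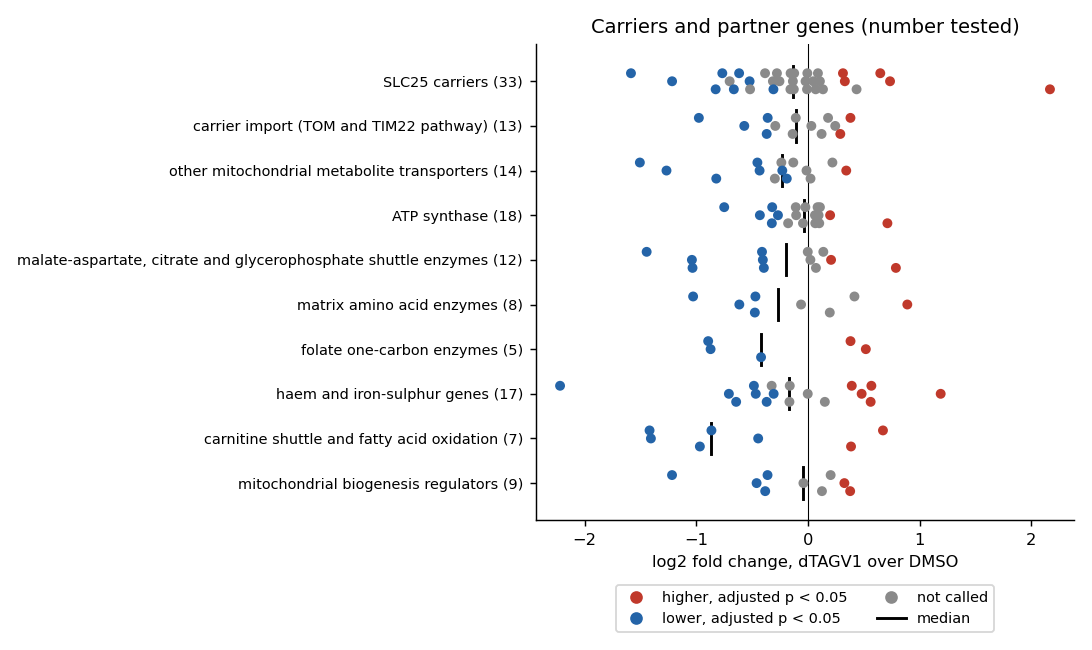
Log2 fold change of each tested gene of the SLC25 family and of 9 partner lists, coloured by call, with a black bar at each list's median. Called genes lie on both sides of 0 in every list, and the carnitine and fatty acid oxidation list has the lowest median, at -0.86.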

How the data were processed

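RNA from 8 HCT116 libraries was read at transcript 3′ ends. The deposited values are whole-number counts of reads per gene, in 3 columns: both strands, the sense strand and the antisense strand. STAR, HTSeq, fastp, FastQC, DESeq2 and the build GRCh38 are named without versions or roles in the submitters' processing notes. Which annotation release was used, and whether molecular identifiers were, is not given in the sources used here. Sense counts were used, because the kit is a forward one per the labels' protocols. In each table, 4 totals of reads given to no gene stayed out of library sizes. They held 56.7% to 62.8% of reads.

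Members were protein-coding genes by GENCODE 29 whose symbol in a table of gene names has the form SLC25A and a number. Carrier-like genes with other symbols, such as MTCH1 and MTCH2, are outside this rule. Coordinates come from GENCODE 29 (GRCh38) and are 1-based. Genes were filtered with filterByExpr, scaled with TMM and compared with the edgeR 4.0.16 quasi-likelihood test (robust) in R 4.3.3. Benjamini-Hochberg adjustment ran over all tested genes, at a threshold of 0.05. A positive log2 fold change is higher with dTAGV1, and its standard error is its size divided by the square root of F. CPM is counts in each 1000000 after TMM scaling. Ratios of 2 members used log2 of counts plus 0.5 and a 2-sided exact permutation test. Alternatives were DESeq2 1.42.0, scaling by RLE or by library size, testing without the filter, the column for both strands, the replicate number as a block, a pseudocount of 1 for ratios, and leaving out each library in turn. On simulated counts over 12425 genes, 45.8% of changes of 0.5 and 87.8% of changes of 1 on the log2 scale were recovered. Each of these sizes was given to only 48 or 49 genes, whereas 57.9% of all tested genes were called in the data. The recovered shares thus do not give the power of the real comparison.

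The members, partner lists and pairs were chosen with earlier results of these data known. Members are named, except that 1 member and 1 partner gene, which stay in the counts, are not reported here. Library values are given for called members whose groups do not overlap and for the 2 abundant carriers SLC25A3 and SLC25A5, and in each partner list the called genes with the largest increase and decrease are named. Other partner genes were named after their values were seen. Figures were drawn with matplotlib 3.10.9.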

Additional observations from a re-analysis of the deposited data

Results flagged for a closer look

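In groups of 4 libraries, 2 of 66 checked for tested members held a library far from the others, where chance gives about 1 in 20. SLC25A16 had 5.44 CPM in dTAGV1 replicate 2, beside at least 8.25 CPM in the other 3. SLC25A22 had 43.5 CPM in dTAGV1 replicate 4, beside 29.8 to 31.1 CPM in the other 3. Neither gene was called with all libraries.

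Among family entries outside the 48 members, SLC25A21-AS1, a noncoding gene on the opposite strand of SLC25A21, was higher with dTAGV1. It had 13, 7, 12 and 16 counts with DMSO (replicates 1 to 4) and 41, 36, 67 and 51 with dTAGV1 (same order), with a log2 fold change of 2.12 ± 0.27 (SE; edgeR adjusted p = 2.95e-07). SLC25A21 itself had too few counts for the test. Reads on the opposite strand of SLC25A30 averaged 1.38 ± 0.609 CPM in the DMSO group and 2.74 ± 0.294 CPM in the dTAGV1 group (SD, n = 4), without overlap, on 3 to 12 counts a library. TPT1-AS1, which overlaps SLC25A30 there, was lower, with a log2 fold change of -0.53 (edgeR adjusted p = 0.00381).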

How the results depend on the processing

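Of 460 alternative values for the 33 tested members, 431 kept their side of the threshold, 15 lost a call, 13 gained one and 1 reversed. The reversed value was SLC25A15 with counts irrespective of strand, at 0.41. With counts irrespective of strand, SLC25A29 and SLC25A25 had too few counts for the test and gave no value. In all 14 alternatives 9 of the 13 calls were kept. Those of SLC25A13, SLC25A4, SLC25A15 and SLC25A29 were not, and for the first 3 the cause was not tested. Called members numbered 11 to 14 without each library in turn and 11 to 15 otherwise, with 4 to 6 higher and 7 to 10 lower. The median of the members ran from -0.21 to -0.11, lowest with library-size scaling, which shifts the median of all genes by -0.07. DESeq2 called 11 members, all among the 13, and 6738 genes in all. With no filter 8073 genes were called.

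The labels do not say that a replicate number is shared between the groups, so the main fit took no pairs. Deviations of same-numbered libraries correlated at 0.13, -0.02, 0.02 and 0.03. With the replicate block 15 members and 7434 genes were called, and the members gained were SLC25A27 (-0.70, edgeR adjusted p = 0.0412) and SLC25A51 (0.45, 0.04999). In every alternative tried for the ratios, 0 of 11 pairs passed the adjusted exact permutation test, where 4 had an unadjusted p under 0.05 with all libraries. Leaving out 1 library keeps the smallest possible p at 0.0286. With the replicate block it is 0.125, where no pair can pass. These alternatives therefore could not decide for a single pair. Depth left 15 of the 48 members without a test.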

Other observations

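SLC25A35 had 15, 10, 15 and 8 counts on its own strand with DMSO (replicates 1 to 4) and 1, 4, 1 and 5 with dTAGV1 (same order). The groups did not overlap, but the counts were too few for the test. On the opposite strand of SLC25A35 there were 103 to 265 counts a library. RANGRF, which overlaps it there, had 208, 267, 225 and 227 counts with DMSO and 147, 103, 128 and 210 with dTAGV1, close to those opposite-strand counts in every library. The log2 fold change of RANGRF came to -0.56 ± 0.12 (SE; edgeR adjusted p = 0.000237).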
